A study of Rattus norvegicus with 6 samples.

Results

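Interferon-stimulated genes are the genes a cell switches on when interferon binds its receptors. They were followed here as a list of 41 genes, chosen by name and with earlier results of these data known. Of these, 37 were measured among the 14324 genes tested. A member was measured where the array annotation gave a row exactly 1 gene symbol equal to the member's current or older symbol. Each measured member had 1 row. Ddx58, which encodes the RNA sensor RIG-I, stands in the reference table as Rig1. Eif2ak2, Samhd1, Xaf1 and Parp14 were not analysed here. The samples were aortic rings of male Fisher 344 rats aged 1 to 2 months. Day 0 rings were taken fresh from the vessel, and day 1 rings had been kept for 1 day in collagen gel under serum-free medium. Each group held 3 arrays, each from RNA of 4 to 6 rings or cultures combined, with no treatment or genetic change named in the labels. The arrays are labelled biological replicates, with nothing on whether an animal gave rings to more than 1 pool. The p-values therefore measure only how these pools differ, which may be partly technical.

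In the classical pathway, type I interferons bind a receptor of IFNAR1 and IFNAR2, and the kinases JAK1 and TYK2 activate STAT2. STAT2 joins IRF9 in a complex that binds the interferon-stimulated response element (ISRE) near its target genes. Type II interferon acts through IFNGR1 and IFNGR2, and its response is tied to a different sequence, the gamma-activated site (GAS). Many targets block viral replication, and others (STAT2, IRF7, IRF9, USP18) are themselves parts or brakes of the pathway. Cells of the vessel wall, smooth muscle, endothelium and fibroblasts among them, carry this pathway as leukocytes do.

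The sequence these genes are known for was looked for near their starts. RefSeq start windows on GRCr8, from 250 bases before to 50 bases after the annotated start, were matched to 28 of the 37 measured members. Ddx58, Dhx58, Zbp1, Ifit1, Ifit2, Mx2, Adar, Isg15 and Usp18 had no entry. The letters searched for the ISRE were GAAA, any 2 bases and GAAA again, on either strand. They read TTTC, any 2 bases and TTTC when the match lies on the strand opposite the gene. They stood in 16 of the 28 windows (57.1%), against 4.12% of all 27457 genes with a window. For the GAS the letters were TTCNNNGAA, which read the same on both strands. They stood in 7 of the 28 windows (25%), against 9.39% of all genes. These are matches of letters and not measured binding. The 250 bases before the start of the members with the largest rises, Rsad2 at chr6:48788121-48788370 (minus strand) and Ifit3 at chr1:241527076-241527325 (plus strand), are shown 5′ to 3′ on the gene's strand with the ISRE letters in capitals.
Rsad2: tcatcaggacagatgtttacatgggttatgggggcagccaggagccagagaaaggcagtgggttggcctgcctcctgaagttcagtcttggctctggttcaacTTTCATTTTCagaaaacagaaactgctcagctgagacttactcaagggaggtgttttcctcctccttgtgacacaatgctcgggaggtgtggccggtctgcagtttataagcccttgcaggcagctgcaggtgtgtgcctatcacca
Ifit3: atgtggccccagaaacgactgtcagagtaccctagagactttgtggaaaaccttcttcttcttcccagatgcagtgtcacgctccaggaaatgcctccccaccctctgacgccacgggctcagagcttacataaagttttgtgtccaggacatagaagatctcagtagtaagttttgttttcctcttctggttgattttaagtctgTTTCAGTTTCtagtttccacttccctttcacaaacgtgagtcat
In Rsad2 the match lay at bases -147 to -138 and in Ifit3 at -44 to -35, counted back from the start.

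The search fixed all but 2 letters of each ISRE match, so the likeness of single matches between members was set by the search. Shorter stretches from members chosen as examples show the matches, with each run of matching letters in capitals and 15 bases on either side. They come from Irf7 chr1:205800068-205800107 (minus strand), Oas1a chr12:41330410-41330455 (plus strand), Oas1b chr12:41395881-41395926 (minus strand), Gbp2 chr2:234005681-234005720 (plus strand), Tap1 chr20:4668640-4668679 (minus strand), Bst2 chr16:18255068-18255113 (minus strand) and Nmi chr3:56848619-56848658 (minus strand).
Irf7: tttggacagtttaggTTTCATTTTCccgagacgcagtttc
Oas1a: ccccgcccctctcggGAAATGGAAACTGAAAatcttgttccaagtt
Oas1b: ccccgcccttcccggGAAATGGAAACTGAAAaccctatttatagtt
Gbp2: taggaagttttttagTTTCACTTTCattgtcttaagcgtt
Tap1: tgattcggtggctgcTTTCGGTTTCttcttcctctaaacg
Bst2: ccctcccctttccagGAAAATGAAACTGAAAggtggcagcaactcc
Nmi: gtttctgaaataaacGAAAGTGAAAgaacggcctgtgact
Oas1a and Oas1b, neighbouring copies of an oligoadenylate synthetase gene, carried the same 16 letters, which hold 2 overlapping matches. Bst2 also held 2 overlapping matches, and a GAS match at -137 to -129 overlapped the first of them. Bst2 and Nmi are shown because they carried the letters but did not pass the test after 1 day of culture. Of the members that rose, 14 of 23 with a window held the ISRE letters, and of those that did not pass 2 of the 5 with a window. The GAS letters stood in 4 of these 23 and in 3 of these 5.

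Among the 5 transcription factors of the list the letters were divided differently. Irf7 held the ISRE letters, and Irf1, Irf8 and Irf9 held GAS letters and no ISRE match, while Stat2 held neither. The stretches come from Irf1 chr10:38417778-38417816 (plus strand), Irf8 chr19:65699089-65699127 (plus strand) and Irf9 chr15:33065722-33065760 (plus strand), with the GAS letters in capitals.
Irf1: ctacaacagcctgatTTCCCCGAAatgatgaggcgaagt
Irf8: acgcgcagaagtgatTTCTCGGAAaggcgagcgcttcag
Irf9: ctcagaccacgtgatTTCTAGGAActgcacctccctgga
Irf8 held a further GAS match at -161 to -153. A window without a match says only that these letters are not in these 300 bases.

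**Figure D1:**
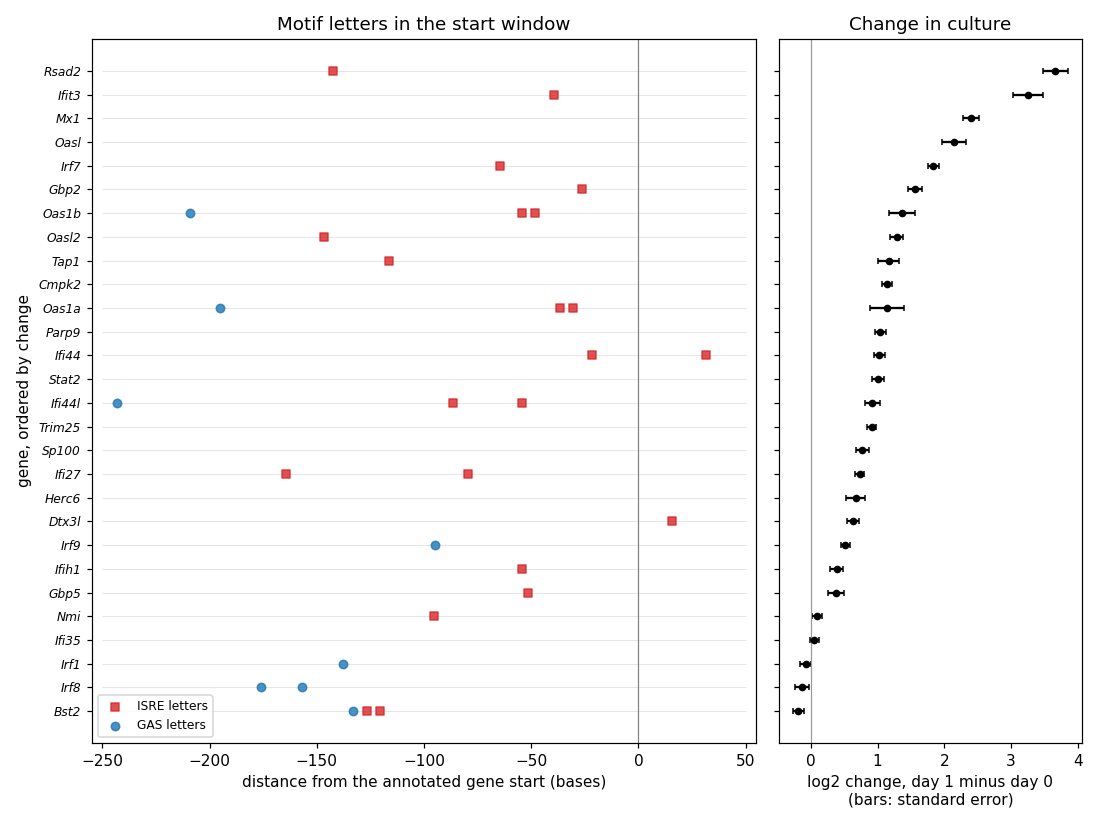
Left, distance in bases of each ISRE (red squares) or GAS (blue circles) match from the annotated gene start, for the 28 measured members with a window. Right, their log2 change from day 0 to day 1 with standard errors (n = 3 per group). ISRE matches stood in 16 of the 28 windows, Bst2 and Nmi at the bottom of the plot among them.

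After 1 day of culture 30 of the 37 measured members had risen and 0 had fallen (limma with Benjamini-Hochberg adjustment over all genes, adjusted p under 0.05, which is what "rose" and "fell" mean throughout). By the same rule 48.3% of all genes tested were called, 27.6% as risen and 20.7% as fallen. At an unadjusted limma p under 0.05 the count of members that fell was also 0. A rise of at least 2-fold was reached by 18 members, against 4.13% of all genes, and a fall of that size by 0, against 4.11%. All day 1 arrays lay above all day 0 arrays in 30 members, against 31.4% of all genes, and below them in 2, Ifit1 and Bst2, against 25.5%. The median log2 change (day 1 minus day 0) was 0.92, and -0.01 over all genes tested. Of the 37 members 36 lay outside the dimmest 25% of genes, and the exception was Ifit1. Of the 100 largest rises among all genes, 5 were members, led by Rsad2.

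Single arrays gave the same picture. Set against the mean of the day 0 arrays, the median difference of the members was 0.94 in day 1 replicate 1, 0.89 in replicate 2 and 0.95 in replicate 3. Over all genes these medians were 0.02, 0.00 and -0.01. Day 1 replicate 1 stood above every day 0 array in 31 members, replicate 2 in 30 and replicate 3 in 32. The same held for 41.8%, 38.9% and 38.2% of all genes in these arrays.

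**Figure D2:**
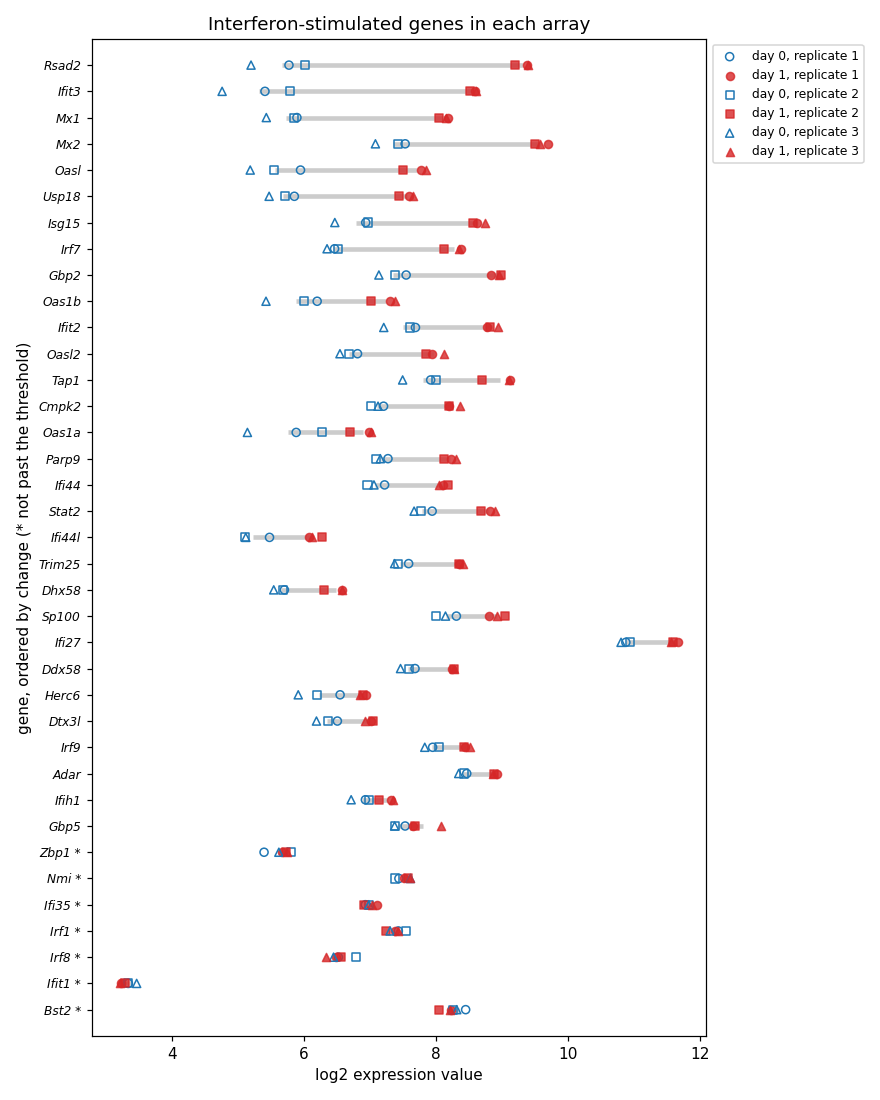
Log2 expression values of the 37 measured interferon-stimulated genes in each of the 6 arrays, day 0 in open blue and day 1 in filled red, with the marker shape giving the replicate. The grey line joins the group means, and * marks the 7 members not past the threshold. In the 30 members that rose, no day 1 array reached down to a day 0 array.

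Rsad2 had the largest rise of the list. It encodes viperin, a radical SAM enzyme that makes a chain-terminating nucleotide. Its log2 value was 5.77, 6.02 and 5.20 in day 0 replicates 1 to 3 and 9.38, 9.20 and 9.40 in day 1 replicates 1 to 3. That was a change of 3.66 ± 0.19 (SE), or 12.7-fold, the 19th largest rise of all genes (limma, adjusted p = 2.29e-06). Day 0 replicate 3 was the lowest array and the day 1 arrays were close together. Cmpk2, its neighbour in the genome and a mitochondrial nucleotide kinase, had values of 7.21, 7.01 and 7.12 on day 0 and 8.20, 8.20 and 8.36 on day 1. It rose by 1.14 ± 0.08, or 2.21-fold, with no overlap between the groups.

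IFIT proteins bind foreign RNA through its cap or end and hold back its translation, and the 3 measured members differed. Ifit3 read 5.41, 5.79 and 4.76 on day 0 and 8.59, 8.51 and 8.61 on day 1, a rise of 3.25 ± 0.22 (9.51-fold). Its day 0 arrays spread over 1.03 log2 units and its day 1 arrays over 0.10. Ifit2 read 7.69, 7.60 and 7.21 on day 0 and 8.78, 8.82 and 8.93 on day 1, a rise of 1.34 ± 0.12. Ifit1, by contrast, was dim on every array, at 3.34, 3.34 and 3.47 on day 0 and 3.23, 3.30 and 3.21 on day 1. Its change of -0.14 ± 0.06 did not pass (limma, adjusted p = 0.114), and all its values lay under 4.88, the lower quartile of the gene means.

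Mx1 and Mx2 are dynamin-like GTPases that block viruses in the nucleus and the cytoplasm of rat cells. Mx1 rose from 5.89, 5.84 and 5.43 to 8.18, 8.05 and 8.15, by 2.40 ± 0.12 or 5.28-fold. Mx2 rose from 7.53, 7.42 and 7.08 to 9.69, 9.50 and 9.58, by 2.24 ± 0.12 or 4.73-fold. In both, every day 1 array was far above the highest day 0 array. They are close paralogs, as are Oas1a and Oas1b, and how far their probes read each other's transcripts was not tested.

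The oligoadenylate synthetases make a second messenger that activates RNase L, and the OASL proteins are relatives. All 4 measured members rose at least 2-fold. Oasl changed most, from 5.95, 5.55 and 5.19 to 7.78, 7.51 and 7.85, a rise of 2.15 ± 0.18. Oas1b went from 6.20, 6.0 and 5.43 to 7.31, 7.02 and 7.38 (1.36 ± 0.19), and Oasl2 from 6.81, 6.68 and 6.55 to 7.95, 7.85 and 8.12 (1.29 ± 0.10). Oas1a had the widest day 0 spread of the list, 5.88, 6.27 and 5.15, against 6.98, 6.70 and 7.02 on day 1. Its rise of 1.14 ± 0.25 passed (limma, adjusted p = 0.00671), and its groups did not overlap.

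Other effector genes rose less or did not pass. Ifi44, a microtubule-associated protein gene of the response, went from 7.22, 6.96 and 7.06 to 8.10, 8.18 and 8.05, a rise of 1.03 ± 0.08. Its relative Ifi44l rose by 0.92 ± 0.11, the mitochondrial protein gene Ifi27 by 0.73 ± 0.07 and the RNA-editing deaminase gene Adar by 0.48 ± 0.06. None of these groups overlapped. Bst2, which encodes tetherin, the protein that holds budding virus at the cell surface, was at -0.18 ± 0.08 (limma, adjusted p = 0.0965). It read 8.45, 8.26 and 8.31 on day 0 and 8.23, 8.04 and 8.21 on day 1. With quantile normalization it passed as a fall (-0.29, adjusted p = 0.0121), and with an intensity trend and robust prior likewise (adjusted p = 0.0396).

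ISG15 is a ubiquitin-like protein that is joined to other proteins, and all 4 members of the list that are grouped with it or with related ligases rose. Isg15 went from 6.94, 6.96 and 6.47 to 8.62, 8.57 and 8.74, a rise of 1.85 ± 0.13 or 3.61-fold (limma, adjusted p = 1.37e-05). Usp18, which removes ISG15 and also restrains the type I receptor, went from 5.86, 5.72 and 5.47 to 7.59, 7.44 and 7.65, a rise of 1.88 ± 0.11 or 3.67-fold (limma, adjusted p = 4.06e-06). The day 1 arrays of both genes lay above all day 0 arrays. Herc6, the rodent ligase for ISG15, rose by 0.68 ± 0.14, and Trim25, the ligase that acts on RIG-I, by 0.91 ± 0.07. Of the enzymes of the ISG15 cycle outside the list, Ube2l6, the conjugating enzyme, rose by 1.32 ± 0.08. Uba7, the activating enzyme, was at -0.21 ± 0.10 and did not pass (limma, adjusted p = 0.114).

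Of the 5 transcription factors 3 rose. Irf7, which drives interferon genes themselves, went from 6.46, 6.51 and 6.35 to 8.38, 8.12 and 8.35, a rise of 1.84 ± 0.09 or 3.57-fold (limma, adjusted p = 1.61e-06). Stat2 went from 7.94, 7.78 and 7.67 to 8.82, 8.68 and 8.90, a rise of 1.00 ± 0.09. Its partner Irf9 rose by 0.52 ± 0.07. Irf1, a factor that interferon gamma induces strongly, read 7.43, 7.55 and 7.31 on day 0 and 7.38, 7.24 and 7.43 on day 1, with overlapping groups (-0.08 ± 0.08, limma, adjusted p = 0.492). Irf8, a factor of macrophages and dendritic cells, read 6.52, 6.79 and 6.45 against 6.48, 6.56 and 6.33 (-0.13 ± 0.10, limma, adjusted p = 0.347), and its groups overlapped too. With Irf9 they are the 3 measured members that held GAS letters and no ISRE letters.

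The cytoplasmic sensors of viral RNA rose by less than 2-fold. Dhx58, a regulator of the other sensors, rose by 0.84 ± 0.09, Ddx58 by 0.68 ± 0.07 and Ifih1, which encodes MDA5, by 0.39 ± 0.09. Zbp1, a sensor of left-handed nucleic acid that can start necroptosis, was at 0.10 ± 0.10 (limma, adjusted p = 0.454), with overlapping arrays.

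PARP9 and DTX3L work as a pair in ubiquitin and ADP-ribose signalling. Parp9 went from 7.27, 7.09 and 7.16 to 8.22, 8.13 and 8.31, a rise of 1.04 ± 0.08, and Dtx3l rose by 0.64 ± 0.09. Nmi and Ifi35, whose proteins bind each other, did not pass, at 0.09 ± 0.08 (limma, adjusted p = 0.379) and 0.05 ± 0.07 (limma, adjusted p = 0.551).

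The measured guanylate-binding protein genes, Tap1 and Sp100 all rose. Gbp2, a guanylate-binding protein gene, went from 7.55, 7.39 and 7.14 to 8.83, 8.98 and 8.95, a rise of 1.56 ± 0.11 or 2.96-fold. Tap1, a chain of the peptide transporter that loads class I molecules, went from 7.92, 8.0 and 7.5 to 9.11, 8.70 and 9.10, a rise of 1.17 ± 0.16. Sp100, a nuclear body protein gene, rose by 0.77 ± 0.10. Gbp5, which helps activate the inflammasome, was the weakest call, at 7.53, 7.38 and 7.37 against 7.65, 7.69 and 8.08 (0.38 ± 0.12, limma, adjusted p = 0.0315). Its call was lost when day 0 replicate 2 (adjusted p = 0.0873) or replicate 3 (adjusted p = 0.0865) was left out, with quantile normalization (adjusted p = 0.0695) and with the replicate number as a block (adjusted p = 0.0521).

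The arrays of a day were not equal for these genes. Day 0 replicate 3 held the lowest day 0 value in 27 of the 37 members (73.0%), and in 35.9% of all genes. On day 1, replicate 2 was the lowest in 21 members (56.8%), and in 35.1% of all genes, and replicate 3 was the highest in 19 (51.4%), and in 29.2% of all genes. The SD over the day 0 arrays exceeded that over the day 1 arrays in 31 of 37 members (83.8%), and in 51.4% of all genes. Median SDs of the members were 0.14 on day 0 and 0.09 on day 1, and 0.09 on both days over all genes. In 27 further interferon-stimulated genes outside the list, day 0 replicate 3 was the lowest of its day in 16 (59.3%) and day 1 replicate 2 in 17 (63.0%). The summed level of 8 macrophage markers, given as linear values, was 2848 in day 0 replicate 3 and 2955 and 2952 in replicates 1 and 2. Of these markers Cd68, Csf1r and Itgam were highest in replicate 3, and Cd163, Mrc1, C1qa and Cd14 lowest. In the same order the sums were 259, 230 and 246 for T and NK cell markers and 100, 116 and 133 for B cell markers. They were 145, 143 and 155 for neutrophil markers and 675, 743 and 672 for plasmacytoid dendritic cell markers. Most T and NK cell markers (7 of 9) and neutrophil markers (5 of 6) lay among the dimmest 25% of genes. Whether leukocyte content had a part in the low values of day 0 replicate 3 was not tested. Without day 0 replicate 3, 29 members rose and 16 rose at least 2-fold. The median change was then 0.86.

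**Figure D3:**
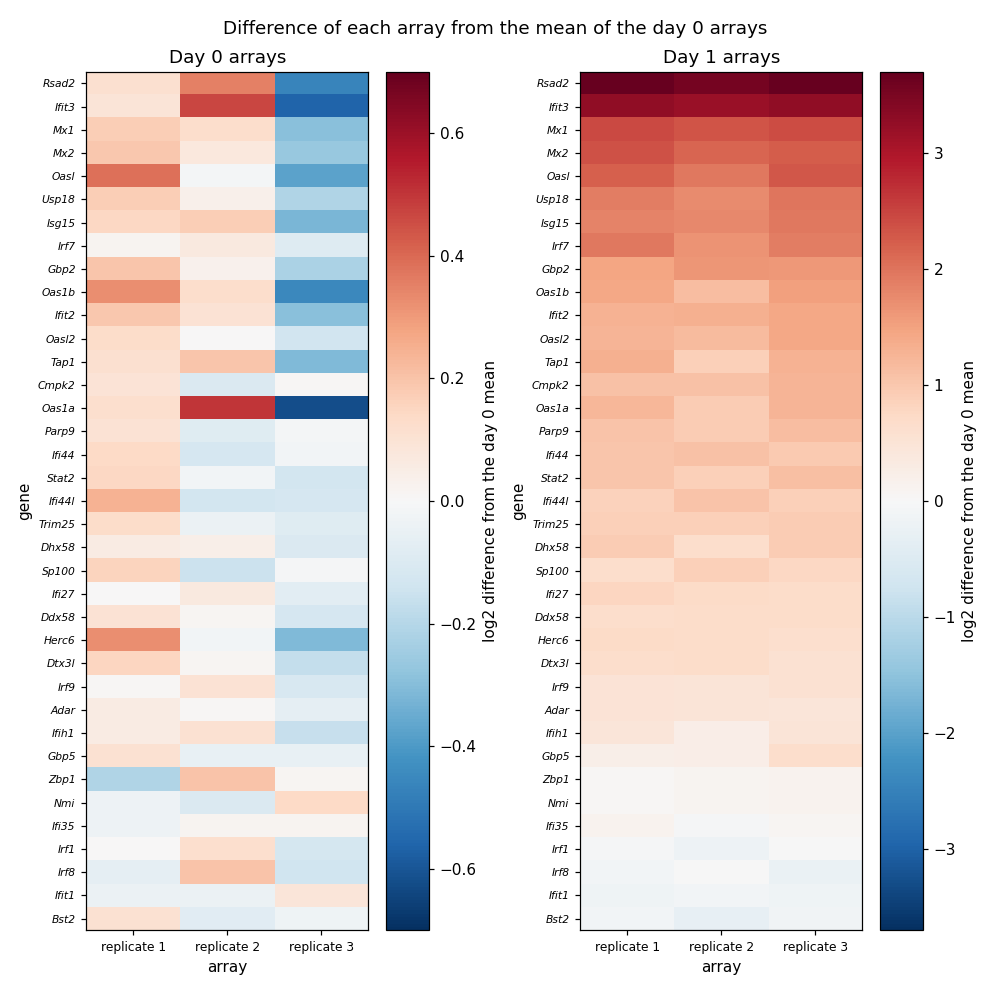
Log2 difference of each array from the mean of the 3 day 0 arrays, for the 37 measured members ordered by change, with day 0 arrays on the left and day 1 arrays on the right. The colour scales differ, running to 0.7 on the left and 3.7 on the right. Day 0 replicate 3 is the lowest of its day in 27 members, and day 1 replicate 2 the lowest of its day in 21.

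Genes upstream and around the response were listed separately by role, 102 in all with 72 measured. Of these 40 rose and 8 fell, with a median change of 0.29, against 27.6%, 20.7% and -0.01 over all genes. Without day 0 replicate 3 the counts were 35 and 6. Of 12 listed interferon genes 5 were measured, and none of the 5 rose. Ifna1, Ifna2, Ifna11, Ifna16l1, Ifne, Ifnl1 and Ifnl3 were not analysed, so their transcripts went unseen. Ifnb1, the interferon beta gene, read 3.98, 4.27 and 4.29 on day 0 and 3.67, 3.61 and 3.75 on day 1, a fall of 0.50 ± 0.09 (limma, adjusted p = 0.00283). Ifna4 was at -0.17 ± 0.07, Ifna5 at -0.11 ± 0.06, Ifng at -0.30 ± 0.13 and Ifnk at -0.02 ± 0.11, all short of the threshold. Ifng passed as a fall without day 1 replicate 2 (-0.45, adjusted p = 0.00560). Ifna5 did on the mean of its 5 rows (-0.19, adjusted p = 0.0358) and on the most variable of them (-0.32, adjusted p = 0.0140), and Ifna4 on the mean of its 2 rows (-0.18, adjusted p = 0.0496). Ifnk lay above 0 with quantile normalization or median centring, or without day 1 replicate 1. Ifnb1, Ifng and Ifnk lie among the dimmest 25% of genes.

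Receptor chains and kinases were higher. Ifnar1, a chain of the type I receptor, rose by 1.12 ± 0.08 (8.89, 8.78 and 8.87 against 9.88, 9.94 and 10.10). Il10rb, the chain that type III interferon shares with interleukin-10, rose by 1.42 ± 0.07, and Ifngr2 of the type II receptor by 0.70 ± 0.06. Its partner Ifngr1 was at 0.02 ± 0.07 (limma, adjusted p = 0.862), and under 0 with quantile normalization or without day 1 replicate 3. The kinase genes Jak1 and Jak2 rose by 0.88 ± 0.06 and 1.08 ± 0.11. Stat3, which serves interleukin-6 type cytokines as well, rose by 1.18 ± 0.07, and Stat4, a factor of lymphocytes best known for interleukin-12 signalling, fell by 2.08 ± 0.08, from 6.31, 6.24 and 6.19 to 4.30, 4.17 and 4.03.

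Of 10 adaptors and kinases that link sensors to interferon genes 5 rose and 3 fell, against 27.6% and 20.7% of all genes, and for so short a list the falls lie near that background. The Toll adaptor Myd88 rose by 1.77 ± 0.07 and the endosomal RNA receptor Tlr7 by 0.69 ± 0.11. Another such receptor, Tlr3, fell by 0.61 ± 0.10. Traf3 (-0.34 ± 0.10) and Mavs (-0.22 ± 0.07), which carry the signal of RIG-I and MDA5, fell in the fit on all arrays. Mavs missed the threshold with any 1 of the 6 arrays left out (adjusted p = 0.0511 to 0.121). For Traf3 the adjusted p was 0.0638 with day 0 replicate 1 left out, 0.0524 with day 0 replicate 3, 0.0656 with day 1 replicate 1 and 0.0513 with day 1 replicate 2.

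Of 8 brakes of the pathway 3 rose and 2 fell, shares near the 27.6% and 20.7% of all genes. All 3 rises were at least 2-fold, a size reached by 4.13% of all genes. Socs3, an inhibitor induced by STAT3, rose from 6.42, 5.9 and 5.85 to 7.71, 7.71 and 7.92 (1.72 ± 0.15), and the phosphatase gene Ptpn2 rose by 1.62 ± 0.11. Socs1, the inhibitor most closely tied to interferon signalling, fell from 7.73, 7.75 and 7.43 to 6.85, 6.64 and 6.60 (-0.94 ± 0.11, limma, adjusted p = 0.000194). Pias1, which encodes a SUMO ligase, fell by 0.29 ± 0.06.

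Downstream genes outside the list rose in most lists, and the counts below stand against 27.6% risen and 20.7% fallen over all genes. In class I presentation 8 of 10 rose and 0 fell, none of them 2-fold, with the tapasin gene Tapbp at 0.83 ± 0.09 and the immunoproteasome gene Psmb9 at 0.77 ± 0.06. Of 4 chemokine genes 3 rose. Cxcl10, which draws activated T cells, read 6.08, 5.93 and 4.95 on day 0 and 7.94, 8.03 and 8.55 on day 1, a rise of 2.52 ± 0.29 or 5.73-fold, and Cxcl11 rose by 1.38 ± 0.22. In Cxcl10 too, day 0 replicate 3 was the lowest array. Of 27 further interferon-stimulated genes 15 rose and 1 fell, with a median of 0.26. Slfn2, a schlafen gene, rose by 1.75 ± 0.10. The gene that fell was Tnfsf10, the death ligand TRAIL, from 7.11, 6.88 and 6.77 to 4.47, 5.06 and 4.96 (-2.09 ± 0.16).

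**Figure D4:**
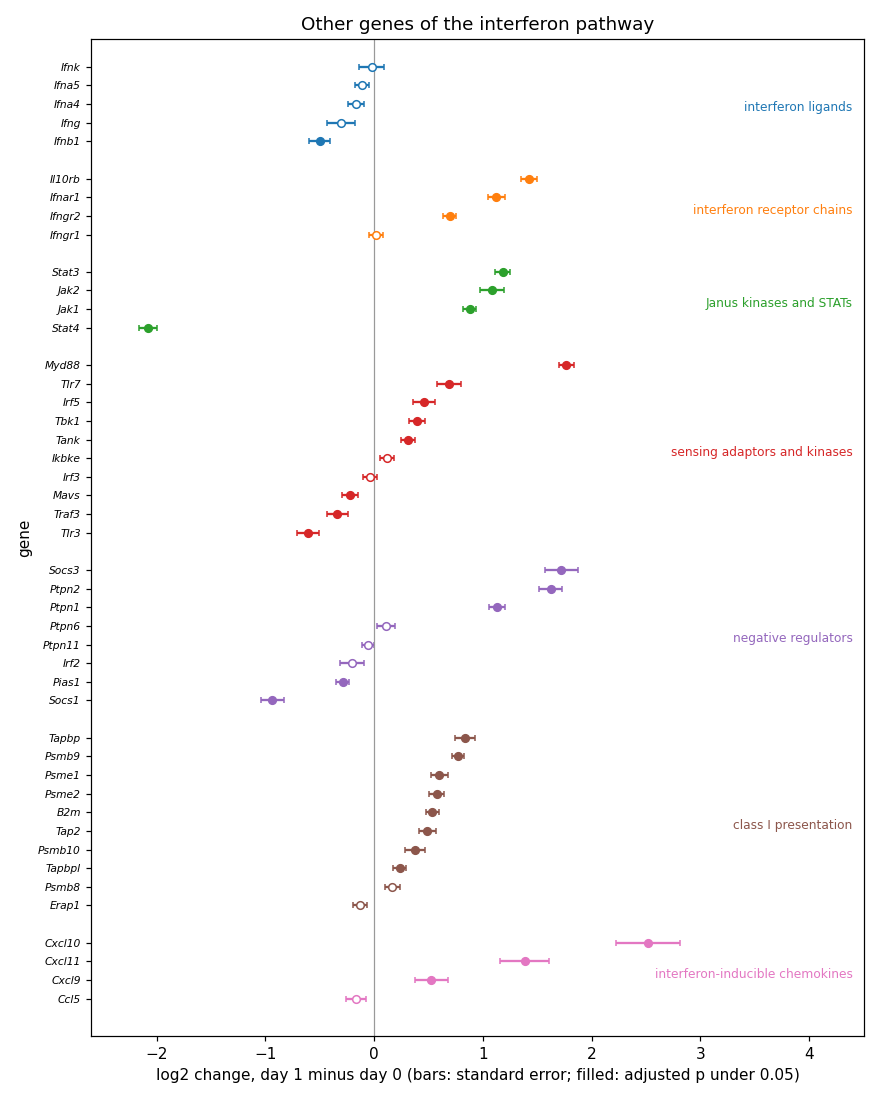
Log2 change from day 0 to day 1 of the other measured interferon pathway genes by role, with standard errors (n = 3 per group) and filled points for an adjusted p under 0.05. The 27 further interferon-stimulated genes are left out. The 5 measured interferon genes lie under 0 (Ifnk turns above it with quantile normalization or median centring), and 3 of the 4 measured receptor chains are filled points above 0, with Ifngr1 close to 0.

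Markers of the cells in these bulk samples moved as well, and in such samples fewer cells of a type and less RNA per cell cannot be told apart. The counts below stand against 27.6% risen and 20.7% fallen over all genes. Several of these lists are so short that their counts lie near that background. The labelled tissue was borne out by smooth muscle markers, whose 6 measured genes all fell, with a summed linear level of 27525 to 28301 on day 0 and 3012 to 3394 on day 1. Of 8 macrophage markers 4 rose and 2 fell (2848 to 2955 against 4204 to 4667). Of 5 markers of plasmacytoid dendritic cells, the specialised makers of type I interferon, 1 rose and 1 fell (672 to 743 against 1165 to 1261), and the marker that rose, Tcf4, makes up most of that sum and is not confined to those cells. Of 9 T and NK cell markers 0 rose and 2 fell (230 to 259 against 202 to 215), and of 6 neutrophil markers 0 passed in limma (143 to 155 against 135 to 138). Among the dimmest 25% of genes lay 7 of the 9 T and NK cell markers and 5 of the 6 neutrophil markers. Dim signal thus limits what these 2 sums show. B cell markers rose in 1 of 3 cases, Blk (100 to 133 against 160 to 184). Of 4 endothelial markers 3 rose, led by Cdh5 (0.78 ± 0.11), and Tek, the brightest of them on day 0, fell by 0.65 ± 0.06, with summed levels of 1480 to 1644 and 1358 to 1492. Of 6 fibroblast markers 3 rose, led by Pdgfra (1.85 ± 0.07), and 3 fell, Col14a1 most (-2.11 ± 0.07), with sums of 18459 to 20151 and 20879 to 22369. Array values have no true 0, and the part of cell makeup in the changes of the interferon-stimulated genes was not tested.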

How the data were processed

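The authors deposited 1 table of log2 expression values, 27342 rows by 6 arrays. That they are log2 is read from their range, and array medians lay between 5.87 and 5.95. Per the labels, 200 ng of total RNA was labelled with the Affymetrix whole-transcript protocol. Among tools, limma stands in the submitters' processing notes. The sources used here do not give the normalization, background correction, summarisation or genome build. Values were used as deposited. Of the rows, 15097 had 1 symbol, 323 several and 11922 none. Symbols were updated by gene ID or accession against RefSeq's GRCr8 gene table (24 rows kept the annotated symbol). The row with the highest mean stood for each of 14324 genes.

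Groups were compared over all genes with limma 3.58.1 in R 4.3.3 (lmFit, eBayes), two-sided, with Benjamini-Hochberg adjustment. Tables were joined in Python 3.11.15 (pandas 2.3.3, numpy 2.4.6) and drawn with matplotlib 3.10.9. On simulated data with 200 changed genes among 14324, the fit recovered 71.6% of changes of 0.5 log2 units, 92.5% of 1 and 98.5% of 2, and 7 of 182 calls were false. That is a far smaller share of changed genes than the 48.3% called in these arrays, so these figures need not hold for the reported fit. The members, lists and tests were chosen with earlier results of these data known. Per-array values are given for members that rose at least 2-fold, that fell, or whose day 1 arrays differ by over 1 log2 unit. From each pathway list the text names the 2 largest changes, those against the majority, and every measured ligand and receptor. Per-array values of other genes, and Jak1, Jak2, Ube2l6, Uba7 and the single marker genes, were added after their values were seen. The number of arrays limits the precision. Same-numbered arrays of both days did not deviate together (Pearson r of deviations over genes 0.01, 0.02 and 0.04), so numbers were not taken as pairs. Alternatives were quantile normalization, median centring, a filter on dim genes, other choices of row, an intensity trend, the replicate block and each array left out.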

Additional observations from a re-analysis of the deposited data

How the results depend on the processing

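The count of members that rose was 30 in the reported fit and 29 or 30 under every alternative run. With each array left out in turn it ran from 29 to 30, and the median change from 0.86 to 1.04. The median was 0.97 with median centring and 0.96 without the dimmest 25% of genes, where 36 members were tested. With quantile normalization, and with an intensity trend and robust prior, 1 member (Bst2) fell. With the replicate block 29 members rose, Gbp5 being the call lost. The block ended no other call among the members and the pathway genes picked by the naming rule. Jak1, Jak2, Ube2l6, Uba7 and the single marker genes were not compared across the alternatives. Replicate numbers are shared by the labels of both days and nothing states that they pair the arrays. Among the single genes compared, 850 of 878 values kept direction and side of the threshold. Values that turned sign were near 0. With quantile normalization Ifnk was at 0.057 and Ifngr1 at -0.080, and with median centring Ifnk was at 0.025. With each array left out in turn, Zbp1 ran from -0.0037 to 0.20, Ifnk from -0.11 to 0.11 and Ifngr1 from -0.028 to 0.060. Mavs also missed the threshold with median centring (adjusted p = 0.106) and with every row as a feature (adjusted p = 0.0622). The cause of these differences was not tested. Dim signal limits what these arrays show of Ifit1, of Ifnb1, Ifng and Ifnk, and of most T and NK cell and neutrophil markers.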
